A study of Mus musculus with 40 samples.

Results

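Long stretches of chromatin carrying acetylation of lysine 27 of histone H3 (H3K27Ac) were examined in mouse macrophages. The domains were chosen by their length in the untreated C57BL6/J library: H3K27Ac regions of 5000 bp or more that share at least 1 bp with an H3K27Ac region of untreated BALBc/J macrophages. Of the 26992 regions listed for untreated C57BL6/J, 1991 met this rule. A further 19999 regions were shared with BALBc/J but shorter, with a median length of 1585 bp, and served as the comparison. Because the domains were chosen from that list, their lengths and untreated C57BL6/J H3K27Ac tags are descriptions and were not tested.

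The cells were thioglycollate-elicited peritoneal macrophages of C57BL6/J and BALBc/J mice, 2 inbred strains. They were given Kdo2-lipid A (KLA) at 100 ng/ml for 1 hr, and in RNA-Seq also for 4 hr, or no treatment. ChIP-Seq covered H3K27Ac, H3K4me2, PU.1 and C/EBPa after KLA and without treatment in both strains, and p65 after KLA with 2 replicates per strain. RNA-Seq (6 libraries) measured polyadenylated RNA, and GRO-Seq (4 libraries) measured RNA being transcribed. Every other assay had a single library per strain and condition. Nothing in the labels tells if each library had its own animals or pool of animals, so p-values measure only how far these libraries scatter, which may be technical variation. No allele or transgene is named in the labels, and the strains differ across the whole genome.

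H3K27Ac marks promoters and enhancers that are in use, and the longest acetylated stretches often lie at genes that a cell type transcribes strongly. In macrophages the enhancers are selected by lineage factors, among them the ETS factor PU.1 and the bZIP factor C/EBPa, and carry H3K4me2 beside H3K27Ac. KLA, a form of the lipid A of bacterial lipopolysaccharide, activates Toll-like receptor 4 and through it NF-kB, whose p65 subunit then enters the nucleus and binds DNA at such enhancers.

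Sequences are shown for the miRNA gene at the fifth longest domain, for a blood-cell miRNA in another domain, and for promoters of 2 domain genes that rose after KLA and 2 in the longest domains. Of 13 miRNA genes with a transcription start site (TSS) in a domain, 12 had a mature sequence in the RefSeq table (GRCm38.p6). Both arms of Mir21, a miRNA induced by inflammation, and of Mir142, a miRNA of blood cells, are given 5′ to 3′ with the seed (bases 2 to 8) in capitals. The 4 seeds all differ.
miR-21a-5p: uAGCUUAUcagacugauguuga
miR-21a-3p: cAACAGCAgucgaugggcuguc
miR-142a-5p: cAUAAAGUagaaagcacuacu
miR-142a-3p: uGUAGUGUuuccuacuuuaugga

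The promoters run from 250 bases before to 50 after the RefSeq start (GRCm38.p6), 5′ to 3′ on the gene's strand. Capitals mark matches, on either strand, to the PU.1 motif GAGGAAGT, the C/EBP motif TTGCNNAA or the NF-kB motif GGNNTTTCC. Nfkbia (chr12:55492598-55492897, minus strand), which encodes the inhibitor IkBa, held 2 NF-kB matches, at bases 73 to 81 and 222 to 230. Tnip3 (chr6:65590148-65590447, plus strand), which encodes a binding partner of A20, held a PU.1 match at bases 85 to 92 and an NF-kB match at bases 198 to 206. Ctss (chr3:95526536-95526835, plus strand), the protease cathepsin S, held a PU.1 match at bases 249 to 256. Nceh1 (chr3:27182754-27183053, plus strand), a cholesteryl ester hydrolase, held a PU.1 match at bases 178 to 185.
Nfkbia: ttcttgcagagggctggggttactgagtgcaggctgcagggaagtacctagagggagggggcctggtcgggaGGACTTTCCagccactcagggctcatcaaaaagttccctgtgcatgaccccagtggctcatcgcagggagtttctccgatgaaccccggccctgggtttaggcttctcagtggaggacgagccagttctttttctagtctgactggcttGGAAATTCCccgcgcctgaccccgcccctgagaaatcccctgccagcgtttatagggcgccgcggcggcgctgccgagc
Tnip3: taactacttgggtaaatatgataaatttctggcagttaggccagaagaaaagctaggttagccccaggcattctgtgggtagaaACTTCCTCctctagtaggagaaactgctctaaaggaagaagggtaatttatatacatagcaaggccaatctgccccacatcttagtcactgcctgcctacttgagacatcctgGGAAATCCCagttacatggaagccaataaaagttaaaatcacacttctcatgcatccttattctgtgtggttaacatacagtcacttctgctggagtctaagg
Ctss: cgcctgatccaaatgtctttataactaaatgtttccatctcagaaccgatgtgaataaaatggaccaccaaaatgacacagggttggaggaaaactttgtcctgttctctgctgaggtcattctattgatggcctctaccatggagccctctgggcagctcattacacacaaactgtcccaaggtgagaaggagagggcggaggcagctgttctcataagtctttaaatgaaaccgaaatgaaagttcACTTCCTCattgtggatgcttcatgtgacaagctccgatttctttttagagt
Nceh1: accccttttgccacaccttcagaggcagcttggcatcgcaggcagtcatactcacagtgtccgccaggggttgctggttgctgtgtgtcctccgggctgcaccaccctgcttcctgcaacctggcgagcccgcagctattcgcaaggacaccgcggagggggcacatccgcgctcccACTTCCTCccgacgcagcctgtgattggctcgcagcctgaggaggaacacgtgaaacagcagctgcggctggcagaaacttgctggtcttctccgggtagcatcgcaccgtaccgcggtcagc

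Of the 854 genes with a TSS in a domain, 685 (80.2%) matched the promoter table, with 936 promoters. The PU.1 motif was in 5.45% of these promoters, against 3.19% of those of genes with a TSS in shorter regions and 3.20% of all 32851 promoters. The C/EBP motif was in 9.83%, against 7.85% and 10.8%, and the NF-kB motif in 7.16%, against 6.10% and 5.82%. Among 69 promoters of the domain genes called higher in GRO-Seq after KLA, 13 (18.8%) held the NF-kB motif, 7.25% the PU.1 motif and 5.80% the C/EBP motif (85.7% of these genes matched). For the domain genes called lower the check is void, because only 76.2% of them matched the table. A match is a string of letters and not a bound site.

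The domains covered 16.56 Mb. They made up 9.05% of the shared regions, 31.4% of their length and 41.3% of their H3K27Ac tags. Their median length was 6813 bp (quartiles 5721 and 9172 bp), 405 reached 10000 bp and 59 reached 20000 bp. Just inside the threshold lay regions of 5000 bp (chr11:22756109-22761109, mm9, as all domain coordinates; 988.2 tags per 10 M), 5001 bp on chromosome 2 and 5002 bp on chromosome 7. Just outside lay 3 regions of 4997 bp on chromosomes 6, 3 and X. Some domains lay close to each other: 328 pairs of neighbours were separated by 10000 bp or less, the smallest gap being 503 bp. The same count was not made for shorter regions.

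The strains shared most of the domain length. The median domain had 93.6% of its bases inside untreated BALBc/J regions, and 1952 of the 1991 had 50% or more. The median shorter region had 93.5%, so this was not particular to domains, and both classes were chosen for overlap with that list. A TSS lay inside 744 domains (37.4%), close to the 37.0% of shorter regions. Of the 1247 domains without a TSS, 683 overlapped a gene body and 564 lay outside genes, and the median distance to the nearest TSS was 24263 bp. In 95 domains there were TSSs of 2 or more genes.

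The longest domain, at chr8:129346962-129413170, was 66208 bp long and held no gene of the expression table. Its nearest TSS was that of Tomm20, 56561 bp away. It carried 19 to 21 p65 peaks in the 4 p65 libraries, the most of any domain, with 14 to 17 PU.1 peaks and 12 to 16 C/EBPa peaks. The second longest spanned Psap, the precursor of the lysosomal saposins, over 49974 bp (chr10:59705478-59755452), with 13 to 15 p65 peaks. The third held the start of Zmiz1, a transcriptional coregulator, over 40591 bp (chr14:26276608-26317199), with 11 or 12 p65 peaks.

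Several of the 15 longest domains held genes known from macrophages. Ctsk and Ctss, the lysosomal proteases cathepsin K and S, shared a domain of 37168 bp (chr3:95297147-95334315). Lgals3, the sugar-binding galectin-3, lay in 33419 bp on chromosome 14, Nceh1 in 32839 bp on chromosome 3, and Dhrs3, a retinaldehyde reductase, in 29486 bp on chromosome 4. The domain of 39032 bp at Mir21 (chr11:86381759-86420791), which overlaps Vmp1, carried 10 or 11 p65 peaks. A domain of 37756 bp overlapping Tnfrsf8 (chr4:144839857-144877613) lay 3084 bp from the TSS of Tnfrsf1b, a TNF receptor gene.

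Nearly every domain was occupied by the lineage factors and by p65. PU.1 peaks were missing from 14 or 15 domains after KLA and from 3 or 4 without treatment. C/EBPa peaks were missing from 57 or 63 after KLA and from 19 or 20 without treatment. Peaks of p65 were missing from 17 to 70 domains, the highest number being in BALBc/J replicate 2, which had the fewest peaks overall (47616, against 56977 to 60505). All 4 p65 libraries had a peak in 1909 domains. Both lineage factors had a peak without treatment in both strains in 1953 domains, and 1878 met both conditions. The median domain held 2 or 3 peaks of each factor. Occupancy was also frequent in the regions of 2500 bp up to the threshold. In untreated C57BL6/J a PU.1 peak lay in 99.8% of domains, 96.1% of those regions and 77.7% of all shorter regions. For C/EBPa the shares were 99.0%, 89.1% and 61.7%. For p65 (C57BL6/J replicate 1) they were 99.1%, 93.2% and 68.7%. The part of region length in these shares was not tested.

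Per length, the domains held fewer called peaks than the shorter regions. PU.1 averaged 3.30 ± 0.06 peaks per 10 kb in domains and 5.63 ± 0.06 in shorter regions (SD, n = 4 libraries), a ratio of 0.585. For C/EBPa the averages were 2.91 ± 0.10 in domains and 4.20 ± 0.22 in shorter regions (n = 4), a ratio of 0.692. For p65 they were 3.13 ± 0.24 and 4.50 ± 0.53 (n = 4), a ratio of 0.696. Domains were lower in 4 of 4 libraries of each factor. The exact two-sided paired permutation test gave p = 0.125 for each, the smallest value that 4 libraries allow, so it could not pass a threshold of 0.05.

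The peaks within domains were taller. In untreated C57BL6/J, PU.1 peaks in domains had a median of 92.7 tags per 10 M, against 58.1 in shorter regions and 38.7 over the whole list. Summed peak tags per 10 kb were closer between the classes than peak numbers. The ratio of domains to shorter regions was 0.771 to 0.827 for PU.1, 0.932 to 1.01 for C/EBPa, and 1.08 to 1.18 for p65, so for p65 the direction turned (mean log2 ratio 0.17). This measure was added after the data were seen. A peak had to exceed its 10000 bp surroundings 4-fold, per the file headers, and the part of that rule in the lower peak number was not tested.

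**Figure D1:**
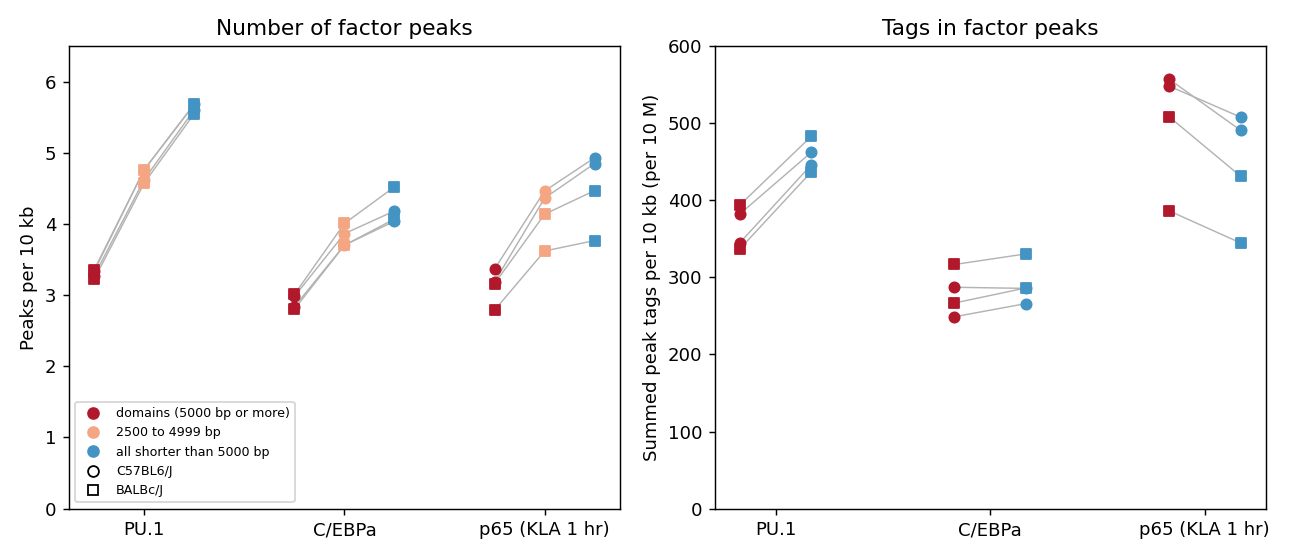
Peaks per 10 kb (left) and summed peak tags per 10 kb (right) of PU.1, C/EBPa and p65 in domains (red), regions of 2500 bp up to the threshold (orange, left only) and all shorter regions (blue). Each point is 1 library, circles are C57BL6/J, squares BALBc/J, and lines join the values of a library; peak numbers were lower in domains in all 12 libraries, whereas summed p65 tags were higher in domains in all 4.

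H3K27Ac tags were lower in most domains after 1 hr of KLA. The tags and lengths of the BALBc/J libraries did not enter the rule. Still, the rule took regions that were long without treatment, the condition from which the change is measured. The part of that choice in the lower tags after KLA was not tested. In BALBc/J the median change was -0.98 in domains of 7500 bp or more. The untreated BALBc/J list took part through the 1 bp overlap, so every domain touched a region there, whereas 71 touched none after KLA; the shorter regions met the same overlap rule. With 1 library a treatment these changes are descriptions with no test. Tags of all regions touching a domain were summed and compared as log2((KLA + 10)/(no treatment + 10)). Of the 1920 domains touched in both BALBc/J lists, the median change was -0.88. In 891 domains (46.4%) tags were lower by 1 or more on the log2 scale, against a background of 26.2% over all shared regions, and in 86 (4.48%) they were higher by as much, against 10.4%. In shorter regions the median was -0.29 (15665 of 19999 listed in both), and in regions of 2500 bp up to the threshold -0.58 (3960 of 4411). The background shares rest on 17585 of 21990 shared regions. Regions not listed after KLA enter neither shares nor medians, and they were more frequent among shorter regions than among domains. These values thus leave out more of the losses in shorter regions than in domains.

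Both tag density and covered length were lower after KLA. Median tags per domain were 333.0 after KLA and 621.9 without treatment in BALBc/J, and the length covered by touching regions was 5434 bp after KLA and 6885 bp without treatment. Covered length was lower in shorter regions as well, at 1354 bp after KLA and 1731 bp without treatment. Per kb of covered length the median change was -0.45 in domains. It was -0.35 in regions of 2500 bp up to the threshold and -0.22 in all shorter regions. Counting only the share of each touching region that lies inside the domain, an alternative added after the data were seen, gave -0.82 in domains. Domains with a TSS changed less (-0.64) than domains without one (-1.07), a difference that was not tested.

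C57BL6/J, whose untreated library chose the domains, had a median change of -1.02 in 1941 domains, given as a description. Within C57BL6/J 50.6% of these were lower by 1 or more, against 28.4% of all shared regions, and 4.69% higher, against 11.9%. In 1896 domains present in all 4 lists, 750 were lower by 1 or more in both strains, 49 were higher by as much in both, and 7 went in opposite directions. These counts over both strains use the untreated C57BL6/J tags of the list that chose the domains. They were not made for shorter regions, so they have no background. Regions of 5000 bp or more touched 942 domains in the treated BALBc/J library and 1519 in the untreated one. In C57BL6/J after KLA the number was 920.

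H3K4me2 medians stayed near 0. The median change in domains was -0.01 in BALBc/J and 0.02 in C57BL6/J, with median tags of 1188.6 after KLA and 1173.7 without treatment in BALBc/J. Across merged H3K4me2 loci listed in all 4 libraries, 3148 lay in domains, and limma with strain as a covariate called 5 higher (0.159%, against 0.0536% of all loci) and 5 lower (0.159%, against 0.0514%), with an adjusted p under 0.05 and a change of 1 or more in size. With centred libraries limma called 2 and 0 domain loci, against 6 and 3 of all 44754 loci. At an unadjusted p under 0.05, limma then gave 456 of the 3148 domain loci and 3583 of all loci, in either direction and whatever their size of change. One of those that rose lay in the domain near Tnfrsf1b, with 696.5 and 708.2 tags after KLA against 115.2 and 322.7 without treatment (BALBc/J and C57BL6/J in each case; 1.80 ± 0.22 on the log2 scale, adjusted p = 2.10e-07). Another lay near Mitf, the gene of a transcription factor of macrophages and osteoclasts, with 1532.3 and 2052.3 tags after KLA against 526.2 and 705.6 without treatment (1.53 ± 0.11, adjusted p = 9.22e-14). The locus fits of H3K4me2, PU.1 and C/EBPa leave 1 residual degree of freedom. Their errors and p-values thus rest on a spread pooled over loci and not on the scatter of the named locus. At the locus near Tnfrsf1b the rise was larger in BALBc/J than in C57BL6/J.

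**Figure D2:**
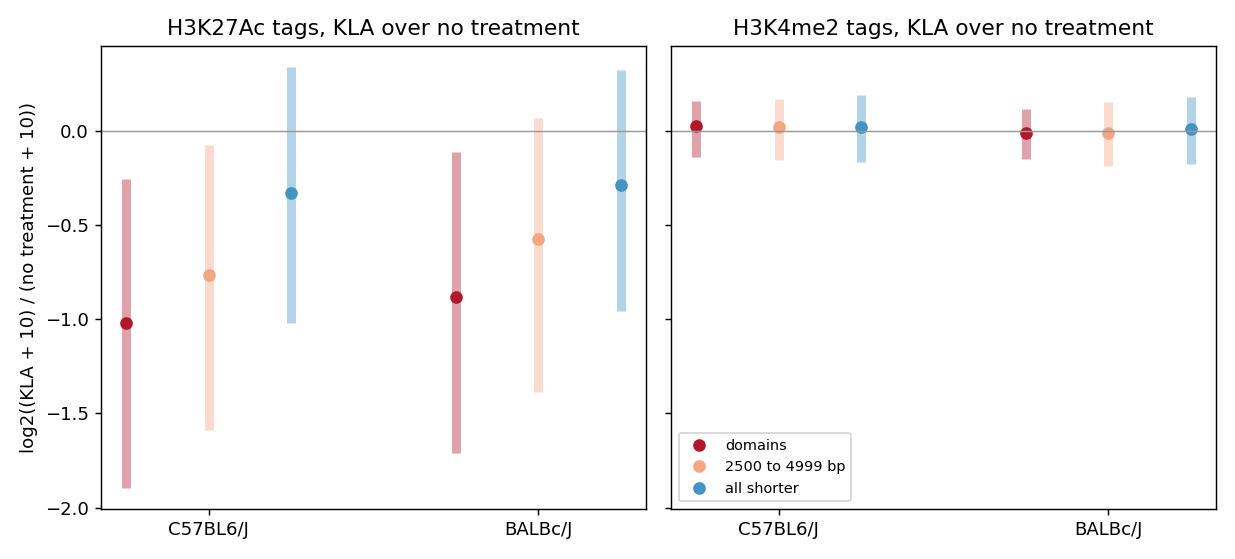
Change of H3K27Ac tags (left) and H3K4me2 tags (right) after 1 hr of KLA relative to no treatment, in domains, regions of 2500 bp up to the threshold and all shorter regions of each strain. Points are medians over regions listed in both conditions and bars their quartiles, on the log2 scale. H3K27Ac medians of domains lie at -1.02 in C57BL6/J and -0.88 in BALBc/J, and all H3K4me2 medians lie near 0.

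Psap lay in a long domain with far fewer tags after KLA. In BALBc/J it had 1566.5 H3K27Ac tags after KLA against 9672.5 without treatment (-2.62 on the log2 scale), and in C57BL6/J 1973.6 after KLA against 13583 without treatment (-2.78). Its H3K4me2 tags were 12443 after KLA and 12721 without treatment in BALBc/J. The domain overlapping Itgb5, an integrin gene, whose nearest TSS is Umps, had 236.9 tags after KLA against 3550.6 in untreated BALBc/J (-3.85). The Ctsk and Ctss domain changed by -1.52, the Dhrs3 domain by -1.99, the Nceh1 domain by -1.18 and the longest domain of all by -0.31 in BALBc/J.

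A pair of long domains had more tags after KLA. The domain near Tnfrsf1b had 5996.9 tags after KLA against 4095.4 without treatment in BALBc/J (0.55), and the Mir21 domain 6624.5 against 3873.5 (0.77). At Mir21 the touching regions also covered more length, 61858 bp after KLA and 42375 bp without treatment, and within the domain alone the change was 0.19. The domain of 32902 bp overlapping Plekho2 had 5768.9 tags after KLA against 4906 without treatment in BALBc/J (0.23).

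The domains with the lowest BALBc/J values were near Chic2 (chr5:75350108-75357599; -5.25, 12.8 tags after KLA against 859.7 without treatment), Plekho1 (-5.20), Rassf8 (-5.09) and 3300005D01Rik (-4.65, overlapping Zdhhc14) and at Arhgap24 (-4.45), the gene of a GTPase-activating protein. None of these 5 held a TSS. Near Plekho1 the untreated tags came from a BALBc/J region of 34559 bp that reaches beyond the domain, and within the domain the change was -2.92.

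The domains with the highest values overlapped Lcp1, the actin-bundling plastin of blood cells (4.20), Frmd4b (4.13) and Vmp1 near Mir21 (3.37) or lay near Klf6 (3.32) and at the start of Cflar, the caspase-8 inhibitor cFLIP (3.15). In all 5 the regions listed after KLA were far longer than the domain. At Lcp1 (chr14:75583983-75589899), for example, 34613 bp were covered after KLA and 4998 bp without treatment. Within the domain alone the changes were 2.25, 1.82, 0.83, 1.24 and 1.48 in the same order.

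Most loci of the lineage factors inside domains were not called after KLA, and among those called more fell than rose. Of 4214 PU.1 loci in domains and listed in all 4 libraries, limma called 155 lower (3.68%, against 2.19% of all PU.1 loci) and 17 higher (0.403%, against 2.00%). Of 3324 C/EBPa loci, 267 were lower (8.03%, against 5.17%) and 59 higher (1.78%, against 4.86%). With libraries centred on their median locus 101 PU.1 loci were lower (2.40%, against 1.37% of all) and 39 higher (0.925%, against 2.82%). For C/EBPa 223 were then lower (6.71%, against 4.12%) and 71 higher (2.14%, against 5.77%). Median changes of domain loci were small, at -0.14 for PU.1 and -0.20 for C/EBPa, against -0.08 and -0.09 over all loci. With centred libraries they were -0.03 and -0.12, against 0.04 and -0.01.

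Single loci moved by several-fold, with errors that again come from a spread pooled over loci. Near Gyg, C/EBPa tags were 30.7 in BALBc/J and 26.7 in C57BL6/J after KLA, against 236.7 and 192.4 without treatment (-2.53 ± 0.20, adjusted p = 1.40e-13). PU.1 in the same domain fell as well (-1.67 ± 0.20, adjusted p = 7.50e-15). In the Itgb5 domain near Umps, PU.1 tags were 44.4 in BALBc/J and 44.5 in C57BL6/J after KLA, against 167.0 and 165.9 without treatment (-1.70 ± 0.17, adjusted p = 6.15e-22). At each of these loci the KLA libraries of both strains lay below both untreated libraries.

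C/EBPa rose in domains at the starts of Fth1, the ferritin heavy chain, Ptafr, the receptor of platelet-activating factor, and Tnip3. At Fth1 the tags were 276.4 in BALBc/J and 284.1 in C57BL6/J after KLA, against 57.9 and 40.1 without treatment (2.32 ± 0.17, adjusted p = 1.11e-14). At Ptafr they were 161.2 and 154.4 after KLA, against 26.3 and 24.1 without treatment (2.25 ± 0.22, adjusted p = 4.79e-11). At Tnip3 they were 165.1 and 154.4 after KLA, against 29.8 and 44.1 without treatment (1.87 ± 0.21, adjusted p = 1.53e-09). PU.1 rose near Eya3 (1.75 ± 0.15, adjusted p = 1.22e-29). In these 4 cases the KLA and untreated values did not overlap.

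The 854 genes with a TSS in a domain were 3.74% of the genes in the expression table and 7.48% of those tested in RNA-Seq; 54 of them did not pass the filter on low tags. They were expressed at higher levels than genes with a TSS in shorter regions. In untreated C57BL6/J the median RNA-Seq level was 405 exon tags per 10 M per kb of mRNA for 800 domain genes and 98.0 for 7643 genes in shorter regions. Across the 6 RNA-Seq libraries the ratio of medians was 3.06 to 4.18, and the log2 difference averaged 1.88 ± 0.17 (SD). The exact two-sided paired permutation test gave p = 0.031, the smallest that 6 libraries allow. Against the 1739 genes with a TSS in regions of 2500 bp up to the threshold, the difference was smaller, at 1.20 ± 0.16, with ratios of 1.91 to 2.57 and the same p in the exact permutation test. In GRO-Seq the ratio was 1.94 to 2.36 (785 domain genes, 6788 genes in shorter regions; mean log2 difference 1.10 ± 0.12; 0.67 ± 0.08 against the 1658 genes of the nearer lengths), with an exact permutation p = 0.125, the smallest that 4 libraries allow. The GRO-Seq library of C57BL6/J after KLA stood apart with a median of 14.0 tags per kb over all genes, against 20.5 to 22.1 in the other 3.

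**Figure D3:**
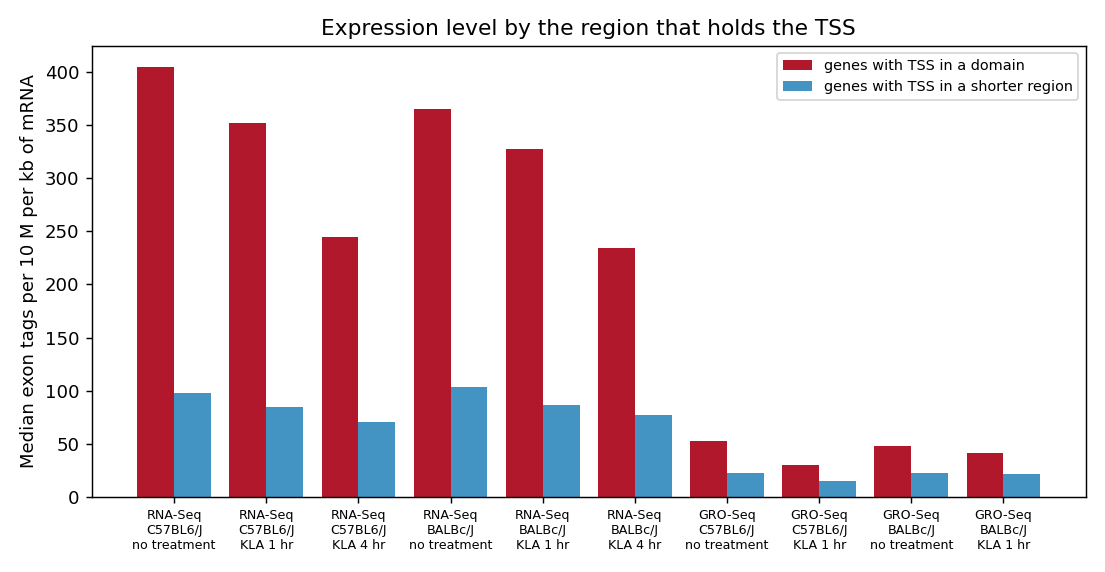
Median exon tags per 10 M tags and per kb of mRNA, in each RNA-Seq and GRO-Seq library, for genes whose TSS lies in a domain (red) and in a shorter region (blue). The domain median is higher in all 10 libraries, at 235 to 405 against 70.2 to 104 in RNA-Seq and 30.2 to 52.6 against 14.3 to 22.3 in GRO-Seq.

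After KLA more domain genes fell than rose, except in RNA-Seq at 1 hr. Changes were fitted with limma on log2(tags per 10 M + 10) over all genes, and calls needed an adjusted p under 0.05 together with a change of 1 or more in size. In GRO-Seq at 1 hr, 231 of 785 domain genes fell (29.4%, against a background of 15.5%) and 56 rose (7.13%, against 4.31%). In RNA-Seq at 4 hr, 283 of 800 fell (35.4%, against 21.3%) and 72 rose (9.00%, against 8.10%). In RNA-Seq at 1 hr, 41 rose (5.13%, against 1.82%) and 11 fell (1.38%, against 1.43%). The share that rose at 4 hr was near that of all genes. In these bulk libraries fewer cells of a type and less RNA per cell cannot be told apart.

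The median of all genes itself moved, by -0.34 in GRO-Seq, -0.47 in RNA-Seq at 4 hr and -0.21 at 1 hr. With each library centred on its median gene, 147 domain genes fell (18.7%, against 7.08% of all genes) and 89 rose (11.3%, against 6.78%) in GRO-Seq. At 4 hr 183 then fell (22.9%, against 9.74%) and 109 rose (13.6%, against 11.7%). In RNA-Seq at 1 hr 4 then fell (0.50%, against 0.730%) and 49 rose (6.13%, against 2.25%). The count of 11 at 1 hr rests on single libraries: it was 57 without C57BL6/J KLA 1 hr and 4 without untreated C57BL6/J. In GRO-Seq the 4 libraries leave 1 residual degree of freedom, so its tests rest on a spread pooled over all genes. Within BALBc/J alone, without the C57BL6/J library that stood apart, 164 domain genes were lower by 1 or more (20.9%, against 9.88% of all genes) and 69 higher (8.79%, against 5.21%). Within C57BL6/J 308 were lower (39.2%, against 25.2%) and 48 higher (6.11%, against 3.96%). Of 764 domain genes tested in both, 156 fell in GRO-Seq and in RNA-Seq at 4 hr, which is 69.3% of those that fell in GRO-Seq and 58.0% of those that fell in RNA-Seq. Both assays called 41 higher, and 6 were called in opposite directions.

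Domain genes of NF-kB signalling and of its negative feedback rose in both assays. Of 30 on that list, 7 had a TSS in a domain, and all 7 rose in RNA-Seq at 1 hr and 4 hr and in GRO-Seq. Their median changes were 3.49, 3.14 and 2.44, against -0.21, -0.47 and -0.34 over all genes. The rise was not particular to domains. Of the 22 listed genes tested outside domains, 14 rose at 1 hr, 19 at 4 hr and 16 in GRO-Seq. Nfkbia had 697, 42195 and 16291 RNA-Seq tags without treatment and after 1 hr and 4 hr in C57BL6/J, and 704, 48102 and 13027 in BALBc/J. Both strains peaked at 1 hr, with every KLA library above both untreated ones (5.99 ± 0.17, adjusted p = 1.68e-06 at 1 hr; 4.36 ± 0.17, adjusted p = 1.90e-06 at 4 hr). In GRO-Seq it had 1333 after KLA against 126 without treatment in C57BL6/J and 1543 against 118 in BALBc/J (3.45 ± 0.29, adjusted p = 1.22e-29).

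Tnfaip3, which encodes the ubiquitin-editing enzyme A20, changed by 4.34 ± 0.19, adjusted p = 1.12e-05 at 1 hr and 3.14 at 4 hr. Nlrp3, the inflammasome sensor, had 186, 2165 and 1930 tags over the time course in C57BL6/J and 223, 2652 and 2805 in BALBc/J. It was still higher at 4 hr (3.45 ± 0.17, adjusted p = 4.85e-06). Zc3h12a, an RNase that degrades cytokine mRNAs, rose further at 4 hr (3.13 ± 0.19) than at 1 hr (2.12 ± 0.19), a difference that was not tested. Tnip3 rose by 3.39 ± 0.18 at 4 hr and Tnfaip2 by 2.13 ± 0.16. Nfkbid, an atypical IkB, shares its 13557 bp domain with Tyrobp, a signalling adaptor; Nfkbid rose (3.75 ± 0.23, adjusted p = 4.92e-05 at 1 hr) and Tyrobp had 0.13 ± 0.20 at 1 hr and was not called.

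H3K27Ac of these domains moved by less than 1 on the log2 scale in BALBc/J, with 0.17 at Nfkbia, 0.65 at Tnfaip3, 0.35 at Nlrp3 and -0.46 at Tnip3.

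Most immediate-early genes in domains rose at 1 hr. Of 31 on the list 11 had a TSS in a domain. At 1 hr 8 of these rose (72.7%, against 1.82% of all genes) and none was called lower by limma (9 above 0 and 1 below 0 at an unadjusted p under 0.05), with a median change of 1.75. Outside domains 13 of 19 tested genes of the list rose at 1 hr, so the rise was not particular to domains. Dusp1, a MAP kinase phosphatase, had 1502, 41464 and 1181 tags without treatment, at 1 hr and at 4 hr in C57BL6/J and 1282, 36182 and 789.6 in BALBc/J. It rose at 1 hr (4.79 ± 0.17, adjusted p = 4.10e-06) and at 4 hr lay below its untreated level in both strains (-0.52 ± 0.17, not called). Zfp36, the mRNA-decay factor tristetraprolin, rose at both times (4.11 ± 0.15 and 1.87 ± 0.15).

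Ier2 (3.86 ± 0.26), Klf2 (2.98 ± 0.19), Junb (2.70 ± 0.16), Klf6 (1.75 ± 0.15) and Gadd45b (1.64 ± 0.15) also rose at 1 hr. Jun, an AP-1 subunit, had 3386, 7597 and 559 tags in C57BL6/J and 2535, 6510.2 and 626 in BALBc/J. It rose at 1 hr (1.26 ± 0.19, adjusted p = 0.00855), fell at 4 hr (-2.29 ± 0.19, adjusted p = 4.94e-05) and fell in GRO-Seq at 1 hr (-1.35 ± 0.32, adjusted p = 2.06e-04; not called with centred libraries). Its RNA and its transcription at 1 hr were thus called in opposite directions.

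Among 16 lineage and signal-dependent transcription factors in domains (of 35 in the table), 5 fell in RNA-Seq at 4 hr (31.3%) and 4 of 15 in GRO-Seq (26.7%). Those shares lay near the 35.4% and 29.4% of all domain genes. None of the 16 was called higher by limma at 4 hr (5 above 0 at an unadjusted p under 0.05), and 1 rose in GRO-Seq. With centred libraries the balance turned, with 3 lower and 4 higher at 4 hr and 2 lower and 3 higher in GRO-Seq. Without centring, 10 of 19 list genes tested outside domains rose at 4 hr and 4 fell. In GRO-Seq 6 of 19 rose there and 5 fell. Cebpa, the gene of C/EBPa itself, had 3144, 1338 and 364 tags in C57BL6/J and 3180.2, 1541 and 273 in BALBc/J. It fell at 1 hr (-1.13 ± 0.20, adjusted p = 0.0175; not called with centred libraries) and at 4 hr (-3.29 ± 0.20, adjusted p = 1.05e-05). Mef2d (-2.28 ± 0.26), Fli1 (-1.33 ± 0.18) and Klf4 (-1.22 ± 0.20) fell at 4 hr, the last 2 not with centred libraries.

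Sfpi1, which encodes PU.1, was not called at 4 hr (0.63 ± 0.17) and only with centred libraries was it higher. Cebpb, another C/EBP factor, rose in GRO-Seq (1.05 ± 0.32, adjusted p = 0.00625). Irf8, a factor of monocyte development, fell in GRO-Seq, with 45.9 after KLA against 212 without treatment in C57BL6/J and 50.9 against 215 in BALBc/J (-1.94 ± 0.34, adjusted p = 3.03e-07). Its RNA-Seq tags at 4 hr were above the untreated ones in both strains (0.91 ± 0.20, called only with centred libraries). Its 12268 bp domain had far lower H3K27Ac tags after KLA (-3.45 in BALBc/J, -2.90 in C57BL6/J).

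Of 30 lysosome and phagosome genes 17 had a TSS in a domain (56.7%, against 7.48% of the genes tested in RNA-Seq). Of these, 6 fell in GRO-Seq (35.3%, against 29.4% of domain genes and 15.5% of all genes; median -0.90). In RNA-Seq at 4 hr 2 fell (11.8%, against 35.4% and 21.3%; median -0.54). None was called higher by limma in either assay, where 1 was above 0 in GRO-Seq and none in RNA-Seq at an unadjusted p under 0.05. With centred libraries 4 fell and 1, Ncf1, rose in GRO-Seq, and 1 fell in RNA-Seq at 4 hr. Without centring, 3 of 13 list genes tested outside domains fell in GRO-Seq and 1 rose. Psap GRO-Seq tags were 978 after KLA against 3126 without treatment in C57BL6/J and 1569.8 against 2804 in BALBc/J (-1.25 ± 0.24, adjusted p = 2.48e-06; not called with centred libraries). Its RNA-Seq change was -0.52 ± 0.13 at 1 hr and -0.68 ± 0.13 at 4 hr and was not called.

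Tfeb, a transcription factor of lysosome genes, had 1130.2, 717 and 80.9 tags in C57BL6/J and 857, 757 and 96 in BALBc/J and fell at 4 hr (-3.34 ± 0.21, adjusted p = 1.26e-05). Atp6v0d2, a subunit of the vacuolar proton pump, fell at 4 hr (-1.40 ± 0.16, adjusted p = 2.42e-04; not with centred libraries) and in GRO-Seq (-2.18 ± 0.32). Lgmn (-1.54 ± 0.33), Laptm5 (-1.45 ± 0.33) and Ctsd (-1.16 ± 0.26), 2 proteases and a lysosomal membrane protein, fell in GRO-Seq and were not called in RNA-Seq, and Ctsd fell only without centring. Ctss and Ctsb were not called in either assay after KLA (-0.92 ± 0.30 and -0.90 ± 0.24 in GRO-Seq).

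Of 23 genes of lipid metabolism 12 had a TSS in a domain. In GRO-Seq 6 fell (50.0%, against 29.4% of domain genes and 15.5% of all genes; median -1.15). In RNA-Seq at 4 hr 4 fell (33.3%, near the 35.4% of domain genes, against 21.3% of all genes; median -0.64). With centred libraries 6 fell and 1 rose in GRO-Seq, and 3 fell and 1 rose at 4 hr. Without centring, 3 of 10 list genes tested outside domains fell in GRO-Seq and 0 rose. Abcg1, a cholesterol exporter, had 3982, 2489.6 and 807 tags in C57BL6/J and 3837, 2237 and 931 in BALBc/J and fell at 4 hr (-2.16 ± 0.17, adjusted p = 4.03e-05). Soat1, which esterifies cholesterol, fell in GRO-Seq (-2.39 ± 0.32, adjusted p = 5.50e-12), and its domain changed by -2.28 in BALBc/J. Plin2, a coat protein of lipid droplets, fell at 4 hr (-1.52 ± 0.18) and in GRO-Seq (-1.54 ± 0.33).

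Fabp4, a fatty acid carrier, had 8661, 18860 and 1900.4 tags in C57BL6/J and 2562, 7322 and 699 in BALBc/J. It rose at 1 hr (1.32 ± 0.17, adjusted p = 0.00436) and fell at 4 hr (-2.02 ± 0.17, adjusted p = 5.35e-05). Apoe, the apolipoprotein, was not called at 1 hr or 4 hr (-0.07 ± 0.19 and -0.39 ± 0.19) and the H3K27Ac tags of its 8751 bp domain changed by -3.94 in BALBc/J. Cd36, a scavenger receptor, fell in GRO-Seq (-1.73 ± 0.31, adjusted p = 3.75e-07) and was not called in RNA-Seq at 4 hr (-0.59 ± 0.15).

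Macrophage identity genes supplied 16 of 27. In GRO-Seq 5 fell (31.3%, near the 29.4% of domain genes) and 1 rose. In RNA-Seq at 4 hr 2 fell (12.5%, against 35.4% of domain genes and 21.3% of all genes), Cebpa among them, and 1 rose (Msr1, a scavenger receptor, 1.47 ± 0.18, adjusted p = 3.75e-04). With centred libraries 4 fell and 2 rose in GRO-Seq, and 2 fell and 4 rose at 4 hr. Without centring, 4 of 9 list genes tested outside domains fell in GRO-Seq and 1 rose. At 4 hr 2 of 11 fell there and 2 rose. Itgam, the integrin CD11b, fell in GRO-Seq (-1.55 ± 0.32, adjusted p = 2.48e-05). Csf1r (-0.78 ± 0.16), Cd68 (-0.01 ± 0.18), Mpeg1 (-0.34 ± 0.22) and Itgax (-0.38 ± 0.17) were not called at 4 hr. Of 17 cytoskeleton and adhesion genes tested outside domains, 4 rose at 4 hr and 1 fell. Of 13 such genes in domains (of 30), 3 rose at 4 hr (23.1%, against 9.00% of domain genes and 8.10% of all genes), namely Zyx (1.61 ± 0.19), Itga5 (1.58 ± 0.17) and Actb (1.22 ± 0.19). Lmna (-1.33 ± 0.19) and Tln1 (-1.12 ± 0.26) fell, but not with centred libraries. The tags of Actg1, 17.3 to 63.2 in RNA-Seq, are uncertain, since actin mRNAs resemble each other and how the counting treated shared reads was not tested. Of the 3 domain genes of 11 often used as references, Actb was called after KLA, at 4 hr.

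Of 33 cytokine and chemokine genes 2 had a TSS in a domain, Ccl6 and Osm (6.06%, against 3.74% of genes in the table and 7.48% of those tested in RNA-Seq). Osm rose at 1 hr (1.44 ± 0.20, adjusted p = 0.00672) and Ccl6 was not called (0.22 ± 0.18). Of 31 interferon-response genes no TSS lay in a domain and 21 lay in shorter regions; 31 of 31 rose in RNA-Seq at 4 hr, against 8.10% of all genes. Of 11 genes of alternative activation 3 had a TSS in a domain: Il4ra rose at 4 hr (1.11 ± 0.17), Arg1 fell (-1.05 ± 0.19, not with centred libraries) and Mrc1 was not called (-0.47 ± 0.23).

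**Figure D4:**
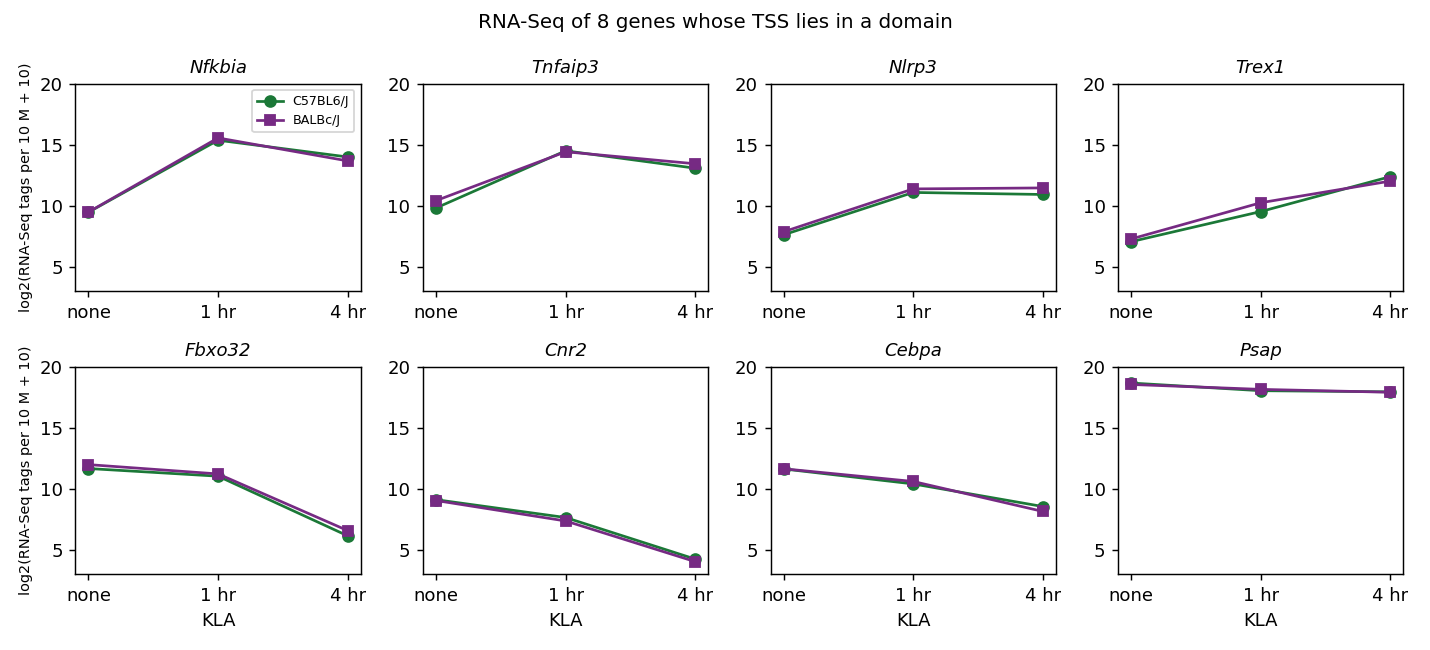
RNA-Seq time courses of 8 genes whose TSS lies in a domain, as log2(tags per 10 M + 10) without treatment and after 1 hr and 4 hr of KLA, with 1 library per point (green circles, C57BL6/J; purple squares, BALBc/J). Nfkbia and Tnfaip3 peak at 1 hr, Nlrp3 stays up, Trex1 rises to 4 hr, Fbxo32, Cnr2 and Cebpa are lowest at 4 hr, and Psap changes by -0.52 at 1 hr and -0.68 at 4 hr.

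The largest rises at 4 hr among domain genes included Trex1, a cytosolic DNA exonuclease, with 123, 726 and 5346 tags in C57BL6/J and 145, 1204 and 4145 in BALBc/J (5.04 ± 0.25, adjusted p = 4.85e-06). It was followed by Nfkbia, Mefv, the pyrin gene (3.61 ± 0.19), Nlrp3, Cflar (3.42 ± 0.21), Tnip3, Slfn2 (3.33 ± 0.17) and F10, coagulation factor X (3.24 ± 0.20). The domains at Trex1 (1.87), Cflar (3.15) and Slfn2 (1.56) had higher H3K27Ac tags after KLA in BALBc/J, and the domain of 25413 bp at F10 changed by 0.13.

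Fbxo32, a ubiquitin ligase subunit, fell furthest of the domain genes at 4 hr, with 3222, 2082 and 60.7 tags in C57BL6/J and 4028, 2368 and 85.1 in BALBc/J (-5.46 ± 0.17, adjusted p = 7.77e-07). Its GRO-Seq tags were 8.41 after KLA against 379 without treatment in C57BL6/J and 24.7 against 586 in BALBc/J (-4.25 ± 0.34, adjusted p = 3.04e-32), and its domain changed by -3.12 in BALBc/J. Cnr2, a cannabinoid receptor, had 542, 189.9 and 8.88 tags in C57BL6/J and 515, 154 and 6.33 in BALBc/J and fell at 1 hr (-1.57 ± 0.19, adjusted p = 0.00278), at 4 hr (-4.94 ± 0.19, adjusted p = 1.58e-06) and in GRO-Seq (-2.89 ± 0.32). In both genes all 4 hr values lay below all others.

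The circadian gene Per1 (-4.12 ± 0.19), the MAX partner Mnt (-4.15 ± 0.37), Eepd1 (-4.05 ± 0.18), Tcp11l2 (-4.17 ± 0.21), Tmem86a (-3.99 ± 0.17) and Fam83f (-3.90 ± 0.21) completed the 8 strongest falls. The H3K27Ac tags of 5 of their domains changed by -1.11 to -2.70 in BALBc/J. The Fam83f domain had no listed region in BALBc/J after KLA. At 1 hr Gadd45g (-1.44 ± 0.17, adjusted p = 0.00278), Thbd, the thrombin receptor thrombomodulin (-1.38 ± 0.20, adjusted p = 0.00754), and Fzd7, a Wnt receptor (-1.43 ± 0.24, adjusted p = 0.0169), were among the genes that fell. In GRO-Seq, Cd83, a marker of activated antigen-presenting cells (2.95 ± 0.31), and Pde4b, a cAMP phosphodiesterase (2.86 ± 0.32), were among the strongest rises. Gpr146 (-3.25 ± 0.36), Fam198b (-3.09 ± 0.36), Tifab (-2.98 ± 0.35), Arhgap25 (-2.89 ± 0.32), Sec22c (-2.69 ± 0.36) and the histone gene Hist2h2be (-2.63 ± 0.35) were among the strongest falls.

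Genes in the 15 longest domains followed different courses. Dhrs3 had 6894, 5619.7 and 935 tags in C57BL6/J and 6445, 5212 and 806 in BALBc/J and fell at 4 hr (-2.93 ± 0.16, adjusted p = 6.27e-06), as did Nceh1 (-2.17 ± 0.19, adjusted p = 6.35e-05) and Zmiz1 (-1.70 ± 0.28, adjusted p = 0.00159). All 3 lay lower at 4 hr than in either other condition in both strains. Lgals3 (-0.43 ± 0.19), Ctsk (-0.52 ± 0.16) and Ctss (-0.31 ± 0.15) were not called. Tags on the Mir21 annotation were 5.3, 31.9 and 13.3 in C57BL6/J and 8.32, 40.0 and 9.20 in BALBc/J (1.45 ± 0.22, adjusted p = 0.00885 at 1 hr). They count polyadenylated RNA over the hairpin and not the mature miRNA printed above.

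Domains were then grouped by the GRO-Seq call of the gene whose TSS they held. Domains with the TSS of a gene called higher in GRO-Seq had a median H3K27Ac change of 0.49 in BALBc/J and 0.41 in C57BL6/J (56 domains; 48 and 45 above 0). Those of genes called lower had medians of -1.40 and -1.64 (216 and 219 domains with values; 3 and 1 above 0). Domains whose genes were not called lay between, at -0.41 and -0.56. In shorter regions the medians were 0.94 and 1.02 at genes called higher, -0.76 and -0.85 at genes called lower, and -0.14 and -0.23 at the others. Within the domain alone the medians were 0.28 and 0.09 at genes called higher and -1.32 and -1.67 at genes called lower. These are descriptions over domains, which are not replicates; the 2 assays share no library.

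**Figure D5:**
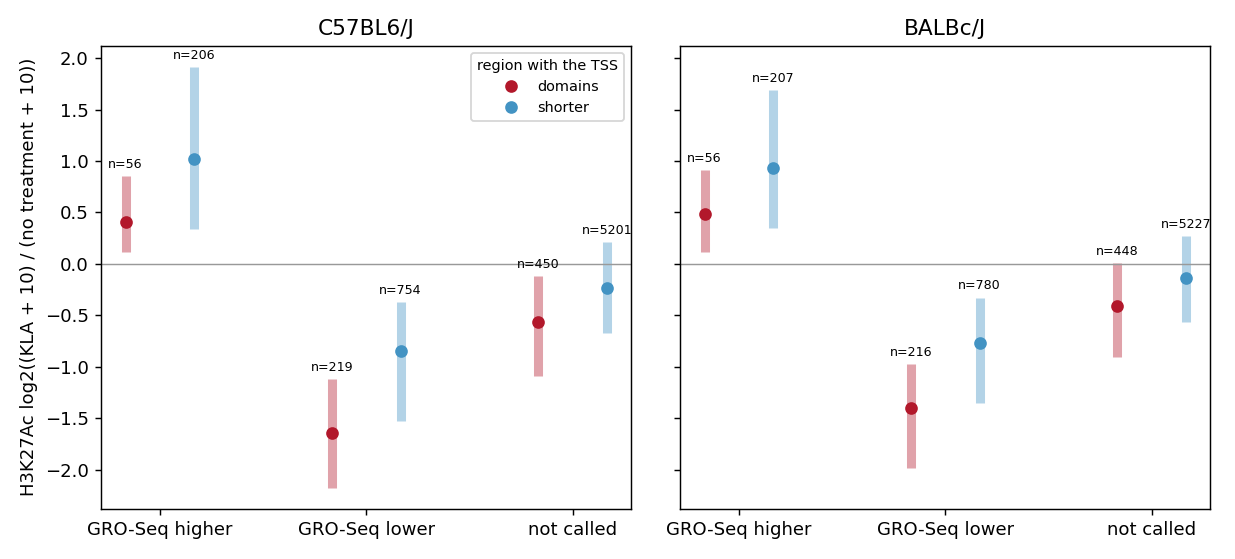
Change of H3K27Ac tags after 1 hr of KLA (log2 scale) in domains (red) and shorter regions (blue), grouped by the GRO-Seq call of the gene whose TSS they hold, in C57BL6/J (left) and BALBc/J (right). Points are medians, bars quartiles, and n the number of regions with values; in BALBc/J the domain medians are 0.49, -1.40 and -0.41 for genes called higher, lower and not called.

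Few domain genes differed between the strains. Because the domains were chosen on a C57BL6/J list, the direction of strain counts is touched by the choice. With treatment as a covariate, 24 of 800 domain genes were higher in C57BL6/J (3.00%, against 1.19%) and 8 lower (1.00%, against 2.52%). C1qb and C1qc, chains of the complement protein C1q, lay in one domain of 14839 bp on chromosome 4. C1qb had 6448, 6598 and 6858 tags in C57BL6/J and 598, 781 and 406 in BALBc/J without treatment and after 1 hr and 4 hr of KLA (3.51 ± 0.19, adjusted p = 7.16e-05). In BALBc/J after KLA no H3K27Ac region touched that domain. C1qc differed by 2.76 ± 0.16, and for both genes every C57BL6/J library lay above every BALBc/J one.

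Gdf15, a stress cytokine, had 850.4, 15809 and 265 tags in C57BL6/J and 78.5, 504 and 28.8 in BALBc/J (3.68 ± 0.35, adjusted p = 8.73e-04), with its highest value at 1 hr in both. C5ar1 (2.60 ± 0.15) and Gpr77 (2.29 ± 0.29), the receptors of complement C5a, were higher in C57BL6/J, as were Vsig8 (2.95 ± 0.18), Mamdc2 (2.41 ± 0.13), Cd97 (2.30 ± 0.25) and Ctsk (1.41 ± 0.13). Lower in C57BL6/J were Sgsh, a lysosomal sulfatase (-2.06 ± 0.21, adjusted p = 0.00115), Gpr183, an oxysterol receptor (-1.79 ± 0.35), Tifab (-1.40 ± 0.29), Pltp, phospholipid transfer protein (-1.38 ± 0.13), Rhov (-1.31 ± 0.17), Hyal1 (-1.30 ± 0.18), C530028O21Rik (-1.12 ± 0.14) and Ncf4 (-1.03 ± 0.17, not with centred libraries).

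Binding of p65 after KLA differed between the strains at few domain loci. Of 4045 p65 loci in domains, 46 were higher in C57BL6/J (1.14%, against 1.62% of all loci) and 10 lower (0.247%, against 0.611%). The count of 46 rests on the libraries: it was 6 without C57BL6/J replicate 2 (0.148%, against 0.233%), 15 without C57BL6/J replicate 1 (0.371%, against 0.548%), 71 without BALBc/J replicate 1 (1.76%, against 1.54% of all loci), and 17 with libraries centred on their median locus (0.420%, against 0.407%). The share of higher loci was thus below that of all loci in some of these settings and above it in others. The count of 10 was 3 without C57BL6/J replicate 2, 5 without C57BL6/J replicate 1 and 6 without BALBc/J replicate 1. In the C1qb domain a p65 locus had 174.7 and 168.2 tags in C57BL6/J and 23.0 and 11.3 in BALBc/J (2.77 ± 0.38, adjusted p = 1.10e-06). At Ddhd1 the values were 292.3 and 288.2 in C57BL6/J and 42.0 and 34.7 in BALBc/J (2.64 ± 0.35, adjusted p = 8.48e-07). Near Ptpra they were 105.8 and 82.9 in C57BL6/J and 391.1 and 336.9 in BALBc/J (-1.85 ± 0.33, adjusted p = 2.09e-04). At each of the 3 loci the strains did not overlap. With 2 residual degrees of freedom, the errors of p65 loci rest mostly on a spread pooled over loci.

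The labelled cell type was checked against markers. The 27 macrophage identity genes summed to 267270 to 373780 RNA-Seq tags per library. The marker sums of T or NK, B, mast, dendritic and erythroid cells and of both granulocyte types each stayed at or under 343 tags, and mesothelial and fibroblast markers summed to 1826 to 4355. The T and NK sum moved with treatment, at 11.8, 18.6 and 196 tags without treatment and after 1 hr and 4 hr in C57BL6/J and 36.9, 35.6 and 249.6 in BALBc/J. At 4 hr the neutrophil sum was 343 tags in C57BL6/J and 155 in BALBc/J, against 145 and 85.8 without treatment. The dendritic cell sum was 122 and 153 at 4 hr, against 54.8 and 69.2, and the mast cell sum 19.7 and 29.9, against 55.9 and 81.7. The part of these markers in the results was not tested. Among those 8 lists, Ms4a1 of B cells (13.3 to 32.8 tags) and Siglec5 of eosinophils (51.8 to 87.8 tags) had a TSS in a domain. ChIP-Seq libraries held 7.10 to 14.4 M tags, RNA-Seq libraries 17.0 to 20.3 M and GRO-Seq libraries 39.4 to 48.3 M.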

How the data were processed

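Of 40 samples 30 were used; 6 inputs, 3 CB6F1/J F1 and 1 NOD/ShiLtJ library were not analysed here. Reads were aligned with Bowtie 0.12.7 to mm9 and processed with HOMER, per the submitters' processing notes. Regions and peaks were called per library against input DNA, per the file headers: H3K27Ac regions against the KLA input of the same strain, for treated and untreated cells alike, factor peaks at 200 bp width with a 4-fold excess over input and over 10000 bp surroundings at FDR 0.001, and both BALBc/J p65 lists against the C57BL6/J input. The tag signal of a peak or region was deposited by the authors per 10 M tags and is the peak's own value. The authors deposited expression as log2 of 1 plus exon tags per 10 M, not corrected for length; no source used here says if strand was used in counting.

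The values of 29028 transcripts were turned back to tags; 21 rows without a symbol were left out, and each of 22865 genes took its transcript with the highest mean RNA-Seq level. Genes with 20 tags per 10 M in 2 libraries were tested with limma 3.58.1 (R 4.3.3) on log2(tags + 10), a scale that understates changes of low genes, with Benjamini-Hochberg adjustment over all 10692 (RNA-Seq) or 9110 (GRO-Seq) genes. RNA-Seq was fitted with treatment and strain, so that the strains served as replicates of a treatment. Loci were merged across the 4 lists of an assay and assigned by midpoint. A region's tags were compared without a test where there was 1 library a group. Alternatives changed the pseudocount, filters, centring, length minimum, comparison regions, locus rule and libraries; summed peak tags, domains by TSS and tags inside the domain were added after the data were seen. Domain classes were compared over libraries by exact sign-flip permutation. Errors of log2 changes are standard errors. The fits were tested on simulated data.

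Named are the 15 longest domains, the 5 with the highest and lowest BALBc/J H3K27Ac change, those with most p65 peaks, the 8 strongest called domain genes per direction and contrast that moved alike in both strains (or in all 3 treatments), and domain members of the gene lists; the 5 strongest loci per direction were listed, from which examples were taken after their values were seen. The members and lists were chosen with earlier results of these data known. A few genes counted in the lists are not reported by name here.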

Additional observations from a re-analysis of the deposited data

How the results depend on the processing

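Of the values behind each comparison, 117 kept their result under the alternatives, 50 moved and 1 reversed; the causes were not tested. A tested difference kept its result with the same direction and side of its threshold, a count within 1.5 times, and the H3K27Ac median within the spread of the strains. So judged, the RNA-Seq level difference kept its direction and p at 1.20, against 1.88, with regions of 2500 bp up to the threshold as the comparison. A length minimum of 7500 bp left 795 domains. The p65 density reversed with summed peak tags (mean log2 ratio 0.17). In BALBc/J, domains with H3K27Ac higher by 1 or more numbered 25 per kb of covered length and 31 by tags inside the domain, and those lower numbered 401 per kb. The median was -0.45 per kb, -0.98 at 7500 bp, -0.64 with a TSS and -1.07 without.

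Testing all 22865 genes without a filter on low tags left 1 of 854 domain genes higher and 0 lower in RNA-Seq at 1 hr (4 and 0 of all genes). At 4 hr 40 were higher and 172 lower (563 and 1168 of all genes). There were 0 and 0 between strains, and 0 and 0 in GRO-Seq. At an unadjusted p under 0.05, limma then gave 2641, 2842 and 4061 genes of the whole table at 1 hr, between strains and in GRO-Seq. A filter of 50 tags in all libraries left 5 of 713 domain genes lower between strains (80 of all 7402). In GRO-Seq it left 102 of 500 lower (242 of all 3074). A pseudocount of 50 left 136 of 785 domain genes lower in GRO-Seq (330 of all 9110). Centring gave 4 lower at 1 hr, 109 higher and 183 lower at 4 hr, and 89 higher and 147 lower in GRO-Seq. Leaving out each library in turn gave 4 to 57 lower at 1 hr.

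A further setting took loci of at least 2 lists and set each missing value to the lowest value listed in that library. Changes at such loci rest in part on filled values. With it, 1 and 0 of 3473 domain loci were higher and lower for H3K4me2 (3 and 5 of all 58025). The counts were 252 and 565 of 5858 for PU.1 (2918 and 2421 of all 75347). They were 355 and 689 of 5269 for C/EBPa (4333 and 2769 of all 50669) and 3 and 0 of 5540 for p65 (32 and 9 of all 61705). With these filled values the share of PU.1 domain loci called higher was no longer below that of all loci. At an unadjusted p under 0.05, limma then gave 444 of 3473 H3K4me2 domain loci (4080 of all 58025). For p65 it gave 631 of 5540 (9613 of all 61705). The H3K4me2 share lay above that of all loci and the p65 share below it. Centring gave 2 and 0 for H3K4me2, 39 and 101 for PU.1, and 17 higher for p65. A pseudocount of 50 gave 4 and 24 of 4214 for PU.1 (175 and 59 of all 43902). For C/EBPa it gave 21 and 70 of 3324 (331 and 198 of all 24747). Leaving out each p65 library gave 6 to 71 higher and 3 to 9 lower. The replicate block gave 92 higher for p65 (2.27%, against 3.12% of all loci). Same-numbered libraries deviated together (r = 0.68), but with 2 pairs the numbers alone do not pair the samples. No other assay had numbered replicates; its KLA fits compare treatments within strain through the strain term. Of the values of single named genes, 3701 kept their call, 163 lost it and 36 gained it. Depth limits low genes: 54 of the 854 domain genes did not pass the filter of 20 tags per 10 M in 2 libraries.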
